A study of Mus musculus with 16 samples.

Results

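Oncostatin M receptor and gp130 signalling was examined through 10 genes of the mouse: Osmr, Il6st, Lifr, Il6ra, Il11ra1, Jak1, Jak2, Stat3, Socs3 and Osm. Members were all probe sets (groups of short probes against one transcript) that carried one of these symbols and no other, which gave 25 probe sets of 9 genes among 45037 probe sets and 18193 genes in all; Il11ra1 was not analysed here. Osmr was chosen by its measured log2 levels, which differed between aged and young haematopoietic stem cells (HSC) on these same arrays, and the other genes as its partners. Osmr values in comparisons that involve HSC are therefore a description and carry no test.

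The series measured gene expression on 16 Affymetrix single-channel arrays from wild-type C57Bl6 mice or cells. Aged steady-state HSC came from male mice of 21 to 24 months (n = 3 arrays) and young steady-state HSC from male mice of 3 to 4 months (n = 3). Aged and young transplanted HSC (n = 2 each) were sorted from recipients of aged or young marrow. Induced pluripotent stem cells (iPSC) of aged or young haematopoietic origin (n = 2 each) and embryonic stem cells (ESC) from 2 suppliers (n = 2) were grown on mouse embryonic fibroblast feeders, so their cultures could hold feeder RNA. Within a group the arrays are biological replicates per the labels, ESC aside, and p-values reflect the spread among arrays. Levels are log2 of the deposited intensity, on which an array's 25th percentile lay between 4.11 and 4.31 and its median between 5.44 and 5.70; detection calls were not used here, so a level near the 25th percentile cannot be told apart from background. Levels of different probe sets are not compared with each other.

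Oncostatin M binds a receptor made of OSMR and gp130, the protein of Il6st. gp130 is the shared chain of the interleukin-6 family: with the LIF receptor it binds LIF, and with the interleukin-6 receptor alpha chain it binds interleukin-6. The chains hold JAK1, JAK2 and TYK2 kinases, which phosphorylate STAT3, and STAT3 induces Socs3, whose protein binds gp130 and shuts the signal down. In HSC this family acts in emergency blood formation, and in mouse ESC culture LIF acting through LIFR, gp130 and STAT3 sustains self-renewal.

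Promoter sequence from RefSeq (build GRCm38.p6) covered 250 bases before to 50 bases after a transcription start and was matched for 9 of the 10 genes, with 11 starts. Those of 3 genes on which the results turn are shown: the receptor genes Osmr and Lifr, each high in one kind of cell, and the feedback inhibitor gene Socs3. Each is read 5′ to 3′ on the gene's strand. Capitals mark TTCNNNGAA, the form bound by STAT factors, and GGGCGG, the GC box bound by SP1-type factors; both strands were searched, and no overlap between the motifs was required.

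Osmr promoter (chr15:6874264-6874563, minus strand): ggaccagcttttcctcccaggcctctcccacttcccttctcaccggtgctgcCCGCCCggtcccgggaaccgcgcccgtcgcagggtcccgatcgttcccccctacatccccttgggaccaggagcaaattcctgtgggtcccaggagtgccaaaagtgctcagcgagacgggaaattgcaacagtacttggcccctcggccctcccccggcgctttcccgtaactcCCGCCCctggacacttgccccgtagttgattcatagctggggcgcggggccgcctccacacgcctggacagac

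Lifr promoter, first start (chr15:7129322-7129621, plus strand): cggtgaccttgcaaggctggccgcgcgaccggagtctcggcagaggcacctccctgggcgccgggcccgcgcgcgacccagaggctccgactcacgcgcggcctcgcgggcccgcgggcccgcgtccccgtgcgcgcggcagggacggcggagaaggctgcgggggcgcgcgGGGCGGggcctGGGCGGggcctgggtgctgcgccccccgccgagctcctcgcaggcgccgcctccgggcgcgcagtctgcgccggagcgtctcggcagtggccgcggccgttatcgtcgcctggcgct

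Socs3 promoter (chr11:117969317-117969616, minus strand): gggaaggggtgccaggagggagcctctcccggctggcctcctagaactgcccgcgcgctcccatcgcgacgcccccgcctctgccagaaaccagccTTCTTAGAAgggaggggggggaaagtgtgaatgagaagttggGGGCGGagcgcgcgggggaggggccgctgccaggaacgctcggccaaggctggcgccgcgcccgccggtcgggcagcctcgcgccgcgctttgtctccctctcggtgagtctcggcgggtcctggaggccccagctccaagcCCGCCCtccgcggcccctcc

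The Osmr window was 66.0% G+C with 22 CpG dinucleotides, the Lifr window 81.3% with 53, and the Socs3 window 73.3% with 31. TTCNNNGAA was found in the Socs3 window and in 0 of the other 10 member windows, against 8.3% of 32851 promoters of the same length. GGGCGG was found 2 times each in the Osmr, Lifr and Socs3 windows shown, and 35.7% of all promoters held at least 1. These matches describe letters in a window and not binding.

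Osmr, which encodes the partner of gp130 in the oncostatin M receptor, had log2 levels of 8.37, 8.81 and 9.01 in aged steady-state HSC, against 4.30, 4.13 and 4.08 in young steady-state HSC (probe set 1418674_at). The 3 aged arrays stood well above all other arrays of the series, while the young ones lay at about the 25th percentile of their arrays. The difference was 4.56 log2, or 23.6-fold, and since the young level lay near background, the fold depends on how low values are treated: with 16 added to each intensity it was 3.69 log2. In transplanted HSC the levels were 4.45 and 4.09 in aged and 3.49 and 3.78 in young, a difference of 0.63 log2 (0.31 with 16 added), at levels where only 1 of these 4 arrays exceeded its 25th percentile. The age difference in transplanted HSC was thus 3.93 log2 below that in steady-state HSC.

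The levels of Osmr in pluripotent cells were 4.84 and 4.24 in aged-origin iPSC, 3.96 and 4.60 in young-origin iPSC, and 4.83 and 4.61 in ESC. These arrays did not enter the choice of the gene, and neither comparison was called: limma gave 0.26 log2 (SE 0.25, adjusted p = 0.994) for aged-origin minus young-origin iPSC and -0.31 log2 (SE 0.21, adjusted p = 0.588) for iPSC minus ESC. Ordered by mean, Osmr stood at 8.73 ± 0.33 in aged steady-state HSC (SD), 4.72 ± 0.15 in ESC, 4.54 ± 0.42 in aged-origin iPSC, 4.28 ± 0.45 in young-origin iPSC, 4.27 ± 0.26 in aged transplanted HSC, 4.17 ± 0.12 in young steady-state HSC and 3.64 ± 0.20 in young transplanted HSC. From ESC down to young steady-state HSC each group's range overlapped the next one's. The range of young transplanted HSC lay below that of young steady-state HSC, in values under the 25th percentile.

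Of the other Osmr probe sets, 1418675_at, whose target accession is the same as that of 1418674_at, read 3.83, 3.45 and 3.25 in aged steady-state HSC, against 3.62, 3.44 and 3.40 in young steady-state HSC. Its groups overlapped, and it exceeded the 25th percentile on 1 of 16 arrays, aged transplanted replicate 1, at 5.08. Probe set 1459217_at read 3.77, 3.97 and 3.47 in aged against 3.39, 3.34 and 3.45 in young steady-state HSC and exceeded the 25th percentile on 0 of 16 arrays. The age difference of Osmr thus rests on a single probe set, as the plot of the 3 Osmr probe sets shows.

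**Figure D1:**
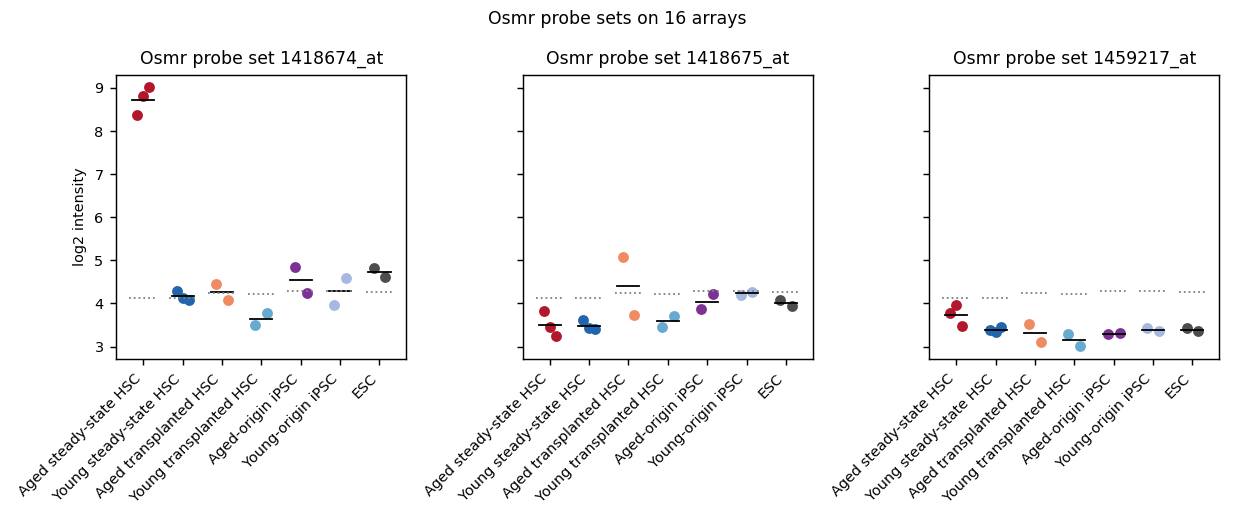
Log2 intensity (vertical axis) of the 3 Osmr probe sets on each of the 16 arrays by group; points are arrays, solid lines are group means and dotted lines the group's mean 25th percentile. Probe set 1418674_at stands between 8.37 and 9.01 in aged steady-state HSC, while the same arrays read 3.25 to 3.83 with 1418675_at and 3.47 to 3.97 with 1459217_at.

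The pattern of Osmr over the 16 arrays was most like that of 5 genes by Pearson correlation of log2 levels: Il1rapl2 (r = 0.973), Tm4sf1 (r = 0.953), Cldn5 (r = 0.932), Ccbe1 (r = 0.930) and Matn4 (r = 0.923). The arrays share groups, and aged steady-state HSC had the highest group mean for all 5 genes. Group means of Tm4sf1, a tetraspanin-family membrane protein, were 8.49 in aged and 4.98 in young steady-state HSC, and 5.76 in aged and 4.49 in young transplanted HSC. Those of Cldn5, a tight-junction claudin, were 8.76 in aged and 6.15 in young steady-state HSC, and 5.13 in aged and 4.94 in young transplanted HSC.

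The question whether the partners of OSMR also differed with age was put to the other 9 genes, of which 8 had a probe set above the dim filter in the fit of the 10 HSC arrays (20 of 22 probe sets; Lifr was tested by 1 of its 3). In steady-state HSC 0 of these 8 genes was called by limma at an adjusted p under 0.05, against 0.601% of all 33778 probe sets tested; 6 of the 20 member probe sets and 1675 of all had an unadjusted p under 0.05. The median difference over the member probe sets was 0.24 log2, against -0.02 over all tested. The 6 belonged to Il6st, Il6ra and Socs3.

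Il6st, the shared gp130 chain, read 8.98, 8.82 and 9.26 in aged steady-state HSC, against 7.93, 8.42 and 8.32 in young steady-state HSC with 1452843_at. Its 1460295_s_at read 5.41, 4.94 and 5.58 in aged, against 4.11, 4.56 and 4.31 in young. With both probe sets every aged array lay above every young array, and neither difference was called: 0.80 log2 (SE 0.29, adjusted p = 0.734) and 0.98 log2 (SE 0.25, adjusted p = 0.226). The other probe sets of Il6st overlapped between the ages, at 0.08 log2 (SE 0.32) for 1421239_at and 0.29 log2 (SE 0.33) for 1437303_at. Of the 22 member probe sets other than those of Osmr, 6 separated the steady-state ages without overlap. The share of all probe sets that did so was not counted, here or in the other comparisons.

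Socs3, the feedback inhibitor, had the widest age difference among the 20 tested probe sets in steady-state HSC. Probe set 1455899_x_at read 12.03, 10.14 and 10.33 in aged, against 10.11, 8.36 and 7.88 in young, a difference of 2.05 log2 (SE 0.61, adjusted p = 0.409). Probe set 1456212_x_at read 10.35, 8.50 and 8.64 in aged, against 8.30, 6.41 and 5.82 in young, a difference of 2.32 log2 (SE 0.66, adjusted p = 0.348). Aged arrays lay above young ones with both, but replicate 1 was the highest of each age group by more than 1 log2, and 1416576_at overlapped, with 8.82, 7.39 and 7.37 in aged against 7.49, 6.58 and 6.08 in young (1.15 log2, SE 0.44, adjusted p = 0.806). Junb, an early response gene on the list of LIF and STAT3 targets, also had its highest value on replicate 1 of each age: 8.95, 6.97 and 6.51 in aged, against 7.74, 5.69 and 5.97 in young. What the replicate 1 arrays share was not tested.

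Among the remaining members in steady-state HSC, Il6ra, the interleukin-6 binding chain, read 5.03, 5.14 and 5.16 in aged, against 5.76, 5.69 and 5.98 in young with 1452416_at. Each aged array lay below each young one, without a call (-0.70 log2, SE 0.16, adjusted p = 0.160), while 1422270_a_at overlapped (0.19 log2, SE 0.19). Differences of the 4 Stat3 probe sets lay between 0.02 and 0.76 log2. Of these only 1460700_at separated the ages, at 10.06 to 10.29 in aged against 9.38 to 9.86 in young, without a call (0.45 log2, SE 0.20). Those of the kinase genes Jak1 and Jak2 lay between -0.33 and 0.29 log2. Osm, the ligand itself, read between 6.71 and 7.29 in aged and between 6.80 and 7.02 in young, a difference of 0.01 log2 (SE 0.20).

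The labelled cell type was checked with marker lists. Summed intensity of 8 HSC genes on the arrays was 25876 to 26379 in aged and 21131 to 24260 in young steady-state HSC, and 7099 to 7905 in aged and 6506 to 6883 in young transplanted HSC. Megakaryocyte and platelet markers (9 genes, all 9 above the 25th percentile on every steady-state array) summed to 10644 to 11696 in aged, against 4062 to 4655 in young steady-state HSC, and to 4070 to 4277 in aged, against 3568 to 3859 in young transplanted HSC. A sum follows its brightest genes. The median log2 level of these markers was 9.59 in aged and 7.94 in young steady-state HSC. In transplanted HSC it went the other way, at 7.79 in aged and 8.33 in young. Myeloid markers (9 genes) summed to 5395 to 6175 in aged against 3603 to 5354 in young steady-state HSC, and erythroid markers (6 genes) to 424 to 545 in aged against 705 to 948 in young. Each of these 3 sums, like that of the HSC genes, separated the steady-state ages without overlap, as Osmr did, and their part in that difference was not tested. Endothelial markers (8 genes) summed to 1618 to 1901 in aged against 1320 to 1649 in young, with overlap, while their median log2 level was 6.01 in aged and 6.19 in young. B cell markers (7 genes) summed to 380 to 419 in aged against 407 to 485 in young, with overlap. T and NK cell markers (6 genes) summed to 228 to 268 in aged and 261 to 263 in young. Marrow stroma markers (8 genes) summed to 231 to 458 in aged against 245 to 481 in young steady-state HSC, with overlap. The part of any of these cell types in the Osmr difference was not tested. Fewer cells of a type and less RNA per cell cannot be told apart in such bulk samples.

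Between aged and young transplanted HSC 0.779% of all probe sets tested were called. Of all genes with 2 or more tested probe sets, 155 of 6999 had at least 1 called. Of the 8 member genes 1 was called, Il6ra with 1452416_at. It read 7.36 and 7.46 in aged transplanted HSC, against 5.97 and 6.26 in young transplanted HSC. The aged pair was higher without overlap, by 1.29 log2 or 2.45-fold (SE 0.20, adjusted p = 0.0293), while the other Il6ra probe set, 1422270_a_at, was not called and lay lower in aged by 0.25 log2 (SE 0.23, adjusted p = 0.710). The difference between the age differences of transplanted and steady-state HSC was called for the same probe set of Il6ra, at 1.99 log2 (SE 0.26, adjusted p = 0.0451), and for 0 of the other 7 genes. Called there were 0.0533% of all probe sets tested, and 12 of 6999 genes with 2 or more tested probe sets had at least 1 called. Of the 20 member probe sets 3 had an unadjusted p under 0.05 there, the Il6ra one and 2 of Il6st, against 3058 of all 33778 tested. Both calls rest on few arrays: with the transplanted arrays fitted alone the adjusted p of the age difference was 0.993 at the same size, and the call was lost without any one of the 6 steady-state arrays (0.0544 to 0.0703) or without aged transplanted replicate 2 (0.0726).

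The other members in transplanted HSC were not called, and the 1 probe set with an unadjusted p under 0.05 was that of Il6ra. Among all 33778 probe sets tested 4708 had such a p, a larger share than 1 of 20. The age differences had a median of -0.06 log2 over 20 probe sets, against 0.00 over all tested. The 3 Socs3 probe sets lay at 0.54, 0.13 and -0.14 log2 with SEs of 0.54 to 0.80. The 2 Il6st probe sets without overlap between the steady-state ages lay at -0.59 log2 (SE 0.36, 1452843_at) and -0.07 log2 (SE 0.30, 1460295_s_at) here. Osm read 5.46 and 5.43 in aged, against 5.78 and 6.15 in young transplanted HSC (-0.53 log2, SE 0.24, adjusted p = 0.372).

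**Figure D2:**
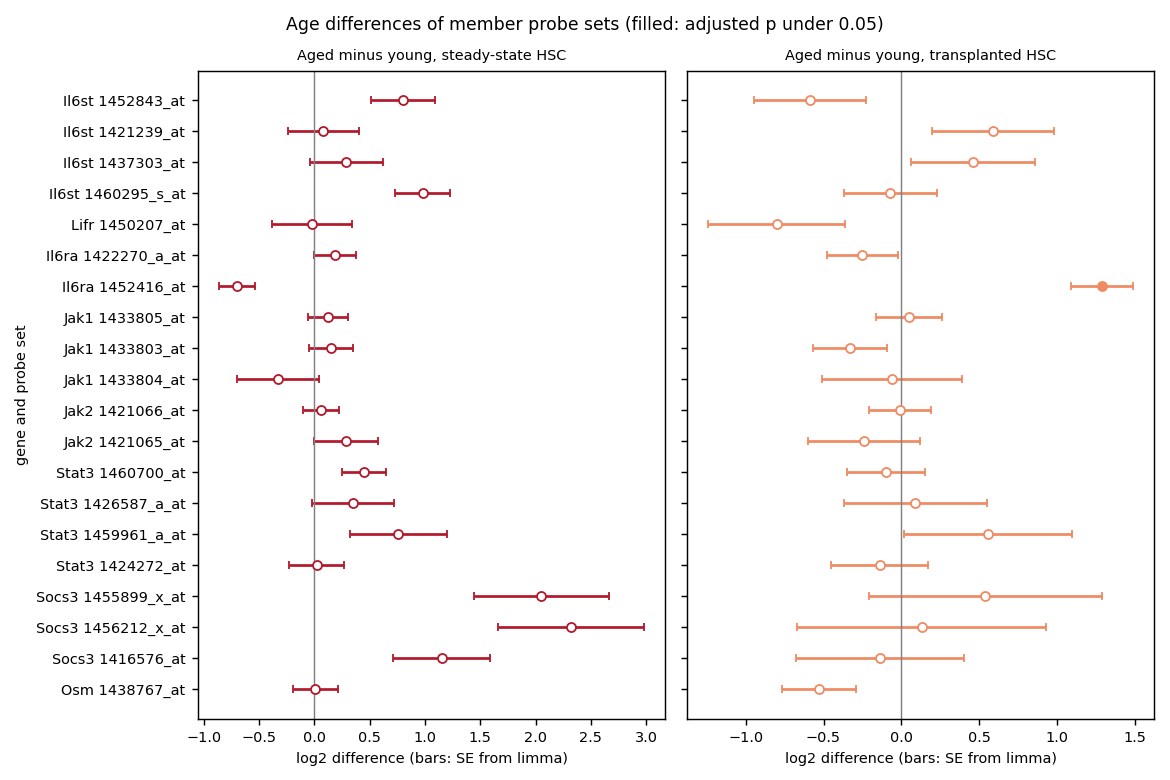
Log2 difference between aged and young (horizontal axis) for each member probe set tested in steady-state HSC (left) and transplanted HSC (right); bars are SEs from limma and filled points have an adjusted p under 0.05. Only Il6ra 1452416_at in transplanted HSC is filled, at 1.29 log2, against -0.70 log2 in steady-state HSC; Osmr is not drawn because it has no test there.

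Other genes of the pathway were counted from 6 lists. In the steady-state age comparison Ebi3 fell and Cebpd rose, and no other listed gene was called. Ebi3, a cytokine subunit that pairs with partners to form gp130-family ligands, read 7.84, 8.02 and 7.99 in aged, against 9.75, 9.44 and 10.03 in young (-1.79 log2, SE 0.19, adjusted p = 0.00243), and was 1 of 9 ligand and receptor genes tested. Cebpd, a transcription factor gene induced by STAT3, read 6.44, 6.91 and 6.51 in aged, against 5.23, 5.18 and 5.73 in young with 1423233_at (1.24 log2, SE 0.22, adjusted p = 0.0431), and was 1 of 18 STAT3 targets tested. Its other probe set, 1456605_at, averaged 4.96 in aged and 4.56 in young, with overlapping arrays (4.61 to 5.14 and 4.45 to 4.66). Called genes numbered 0 of 7 other JAK and STAT genes, 0 of 17 negative regulators, 0 of 9 genes of the SHP2, RAS and ERK arm and 0 of 9 LIF and STAT3 targets of ES cells in limma. In these lists 0 of 12, 2 of 47, 2 of 24 and 1 of 15 probe sets had an unadjusted p under 0.05, against 1675 of 33778 tested. In the transplanted age comparison 0 genes of the 6 lists were called. An unadjusted p under 0.05 was found for 0 of 12 ligand and receptor, 4 of 12 other JAK and STAT and 7 of 47 negative regulator probe sets. It was also found for 1 of 24 in the SHP2, RAS and ERK arm, 5 of 37 STAT3 target and 2 of 15 ES cell target probe sets. Among all 33778 probe sets tested 4708 had such a p. Socs2, a cytokine-induced inhibitor, read 5.60, 7.80 and 7.48 in aged, against 8.22, 8.56 and 8.82 in young steady-state HSC with 1449109_at and was not called (-1.57 log2, SE 0.48, adjusted p = 0.450). Aged replicate 1 was by far the lowest of the 6 arrays.

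Transplanted HSC were set against steady-state HSC, over both ages, to see whether the members differed between the settings. Of the 8 genes 7 were called: Il6ra higher, Jak2, Stat3, Socs3 and Osm lower, and Il6st and Jak1 in both directions by different probe sets, with Lifr not called. By probe set 5 were higher and 10 lower of 20, against 30.6% higher and 36.0% lower among all probe sets tested (66.6% either way), so a call was the common outcome in this comparison. Over all genes with 2 or more tested probe sets, 6545 of 6999 had at least 1 called, so 7 of 8 called genes was a common outcome too. Of the 6999, 2681 (38.3%) had probe sets called in opposite directions. A gene's direction here rests on which probe set reports it. The labels name no batch, so sample preparation and setting cannot be told apart.

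Socs3 was lower in transplanted HSC with all 3 of its probe sets. Probe set 1455899_x_at read 5.38 and 5.69 in aged and 5.29 and 4.71 in young transplanted HSC, against 7.88 to 12.03 in the 6 steady-state arrays, a fall of 23.2-fold (-4.54 log2, SE 0.48, adjusted p = 2.03e-05). Probe set 1456212_x_at fell by 3.03 log2 (SE 0.52, adjusted p = 0.000529), while 1416576_at fell by 2.58 log2 (SE 0.35, adjusted p = 0.00011), and no transplanted array overlapped a steady-state one with any of them. Jak2 also fell with both probe sets, by 1.49 log2 (SE 0.13, adjusted p = 4.57e-06) and 1.45 log2 (SE 0.23, adjusted p = 0.000319). Osm fell by 1.24 log2 (SE 0.16, adjusted p = 6.54e-05).

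Il6ra was higher in transplanted HSC with both probe sets, by 1.30 log2 (SE 0.13, adjusted p = 1.2e-05, 1452416_at) and 0.67 log2 (SE 0.15, adjusted p = 0.00272, 1422270_a_at), as means over both ages. With 1452416_at aged HSC averaged 5.11 at steady state and 7.41 after transplantation. Young HSC averaged 5.81 and 6.12, with overlapping arrays, so this rise lay mostly in the aged groups. For Il6st, 1421239_at averaged 8.99 in transplanted and 6.09 in steady-state HSC (2.89 log2 higher, SE 0.25), whereas 1452843_at averaged 7.22 in transplanted and 8.62 in steady-state HSC (-1.41 log2, SE 0.23). For Jak1, 3 probe sets with the same target accession gave 3.87 (SE 0.29, 1433804_at), 0.08 (SE 0.14, 1433805_at) and -2.51 log2 (SE 0.16, 1433803_at). No single direction can be given for Il6st or Jak1. Stat3 fell with 1459961_a_at by 1.14 log2 (SE 0.35, adjusted p = 0.0154) and with 1460700_at by 0.49 log2 (SE 0.16, adjusted p = 0.0210), while 1426587_a_at lay 0.71 log2 higher without a call (adjusted p = 0.0567). The 1460700_at call was lost without aged steady-state replicate 1, young steady-state replicate 2, aged transplanted replicate 1 or young transplanted replicate 2 (adjusted p of 0.0501 to 0.0631), and the 1459961_a_at call without young transplanted replicate 2 (0.0626).

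**Figure D3:**
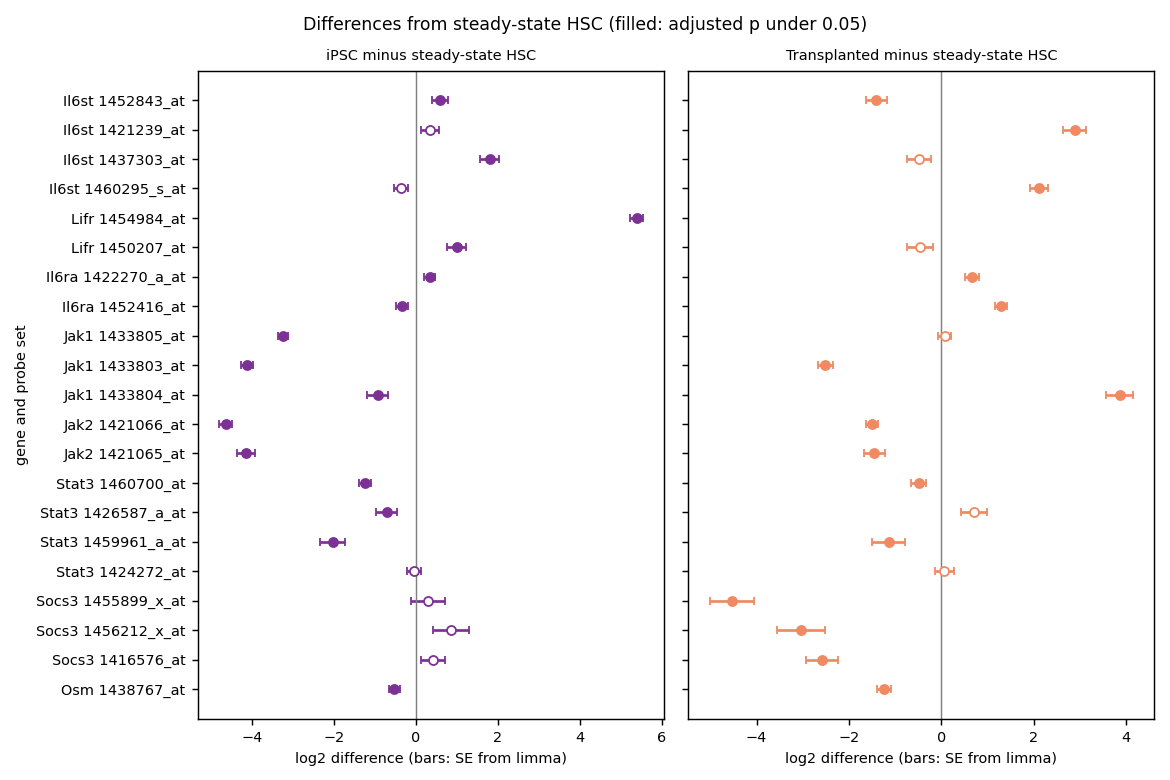
Log2 difference from steady-state HSC (horizontal axis) of each member probe set tested in iPSC (left) and transplanted HSC (right). Bars are SEs from limma and filled points have an adjusted p under 0.05. Osmr is not drawn because it has no test there. In transplanted HSC the Jak1 probe sets spread from -2.51 to 3.87 log2, while in iPSC they lie at -4.13, -3.25 and -0.94 log2.

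Of the pathway lists in this comparison, 13 of 18 STAT3 targets moved one way (5 higher, 8 lower) and 5 both ways. Among all probe sets tested 66.6% were called. So were 6545 of 6999 genes with 2 or more tested probe sets, 2681 of them both ways. Myc rose by 2.05 log2 (SE 0.23, adjusted p = 3.24e-05) and Fgl2 fell by 3.89 log2 (SE 0.13, adjusted p = 1.9e-08). Among the negative regulators 1 was higher, 6 lower and 8 both ways of 17, with Cish, an inhibitor induced by STAT5, lower (-1.64 log2, SE 0.13).

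Between aged-origin and young-origin iPSC limma called 0 of 9 member genes, Osmr included, against 0.0118% of all probe sets; 0 of 22 member probe sets and 1516 of all had an unadjusted p under 0.05. The Lifr probe set 1454984_at read 8.49 and 8.47 in aged-origin iPSC, against 8.93 and 8.59 in young-origin iPSC (-0.28 log2, SE 0.15, adjusted p = 0.994). Between iPSC and ESC 0 of 9 were called as well, against 0.0947%, with 0 of 22 member probe sets at an unadjusted p under 0.05 (4237 of all). In iPSC minus ESC the member median was -0.04 log2, against 0.00 over all tested. Limma called 0 genes of the 6 pathway lists in either comparison. Probe sets with an unadjusted p under 0.05 were counted for ligands and receptors, other JAK and STAT genes, and negative regulators. The SHP2, RAS and ERK arm, STAT3 targets and ES cell targets followed. Between the iPSC origins the counts were 0 of 13, 3 of 11, 3 of 43, 1 of 23, 0 of 37 and 0 of 18, against 1516 of 33778. Between iPSC and ESC they were 0 of 13, 2 of 11, 6 of 43, 1 of 23, 4 of 37 and 6 of 18, against 4237 of 33778.

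Pluripotent cells were set against HSC with the 4 iPSC arrays and the 6 steady-state HSC arrays, in the fit of all 16 arrays. Of the 8 genes tested 7 were called: Lifr and Il6st higher, Jak1, Jak2, Stat3 and Osm lower, and Il6ra both ways. The 21 member probe sets held 5 higher and 10 lower, against 37.2% higher and 30.2% lower among all tested (67.4% either way). Over all genes with 2 or more tested probe sets, 6497 of 7049 had at least 1 called, and 1265 (17.9%) were called both ways. A call was thus the common outcome here as well. Socs3 was not called.

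Lifr, the receptor chain for LIF, had levels of 8.47 to 8.93 on the 4 iPSC arrays and 8.74 on both ESC arrays, against 2.95 to 3.52 in steady-state HSC (1454984_at). All pluripotent arrays lay far above the HSC arrays, which were below their 25th percentile, and the iPSC difference was 5.39 log2 (SE 0.15, adjusted p = 1.52e-12). The probe set exceeded the 25th percentile on 6 of 16 arrays, the pluripotent ones, and passed the dim filter through them; with no filter the adjusted p was 2.33e-12. Because the HSC level was not above background, the size depends on how low values are treated, and with 16 added to each intensity it was 4.01 log2. Transplanted HSC read 2.78 to 3.26. Probe set 1450207_at was 0.99 log2 higher in iPSC (SE 0.24, adjusted p = 0.00271), and 1425107_a_at lay below the 25th percentile on all 16 arrays. The genes whose pattern over the 16 arrays was most like that of Lifr were Dppa5a, Morc1 and Gtsf1l (r = 0.998 each) and Dppa4 and Sall1 (r = 0.997 each), correlations set by the step between pluripotent cells and HSC.

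Il6st was higher in iPSC with 1437303_at, which averaged 7.96 in iPSC and 6.16 in steady-state HSC (1.80 log2, SE 0.23, adjusted p = 9.54e-06), and with 1452843_at (0.59 log2, SE 0.20, adjusted p = 0.0188). The second call was lost without aged-origin iPSC replicate 2 (adjusted p = 0.0747) or young-origin iPSC replicate 1 (0.0572). Its other probe sets were not called, at 0.33 log2 (SE 0.22) and -0.37 log2 (SE 0.17). Il6ra moved little, by 0.33 log2 (SE 0.13, adjusted p = 0.0331, 1422270_a_at) and -0.35 log2 (SE 0.15, adjusted p = 0.0465, 1452416_at). Leaving out 1 array ended the 1422270_a_at call for aged-origin iPSC replicate 1, either young-origin iPSC array, aged steady-state replicates 1 and 3 or young steady-state replicates 2 and 3 (adjusted p of 0.0546 to 0.123). It ended the 1452416_at call for the same 3 iPSC arrays, either ESC array, any aged steady-state array or young steady-state replicates 1 and 3 (0.0503 to 0.290).

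The kinases and STAT3 were lower in iPSC. Jak2 fell by 4.65 log2 (SE 0.16, adjusted p = 1.62e-11) and 4.16 log2 (SE 0.22, adjusted p = 1.57e-09), and averaged 5.99 in iPSC and 10.63 in steady-state HSC with 1421066_at. Jak1 fell with all 3 probe sets, by 4.13 log2 (SE 0.14), 3.25 log2 (SE 0.12) and 0.94 log2 (SE 0.26, adjusted p = 0.00623). Stat3 fell with 3 of 4 probe sets: with 1460700_at it averaged 8.66 in iPSC and 9.91 in steady-state HSC (-1.25 log2, SE 0.14, adjusted p = 2.59e-06). The call of 1426587_a_at (-0.72 log2, adjusted p = 0.0219) was lost without aged-origin iPSC replicate 2 (0.0707) or young-origin iPSC replicate 1 (0.0615). Osm fell by 0.53 log2 (SE 0.14, adjusted p = 0.0043). Socs3 averaged 10.10 in iPSC and 9.81 in steady-state HSC with 1455899_x_at (0.29 log2, SE 0.41, adjusted p = 0.550), where the steady-state arrays ranged from 7.88 to 12.03.

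**Figure D4:**
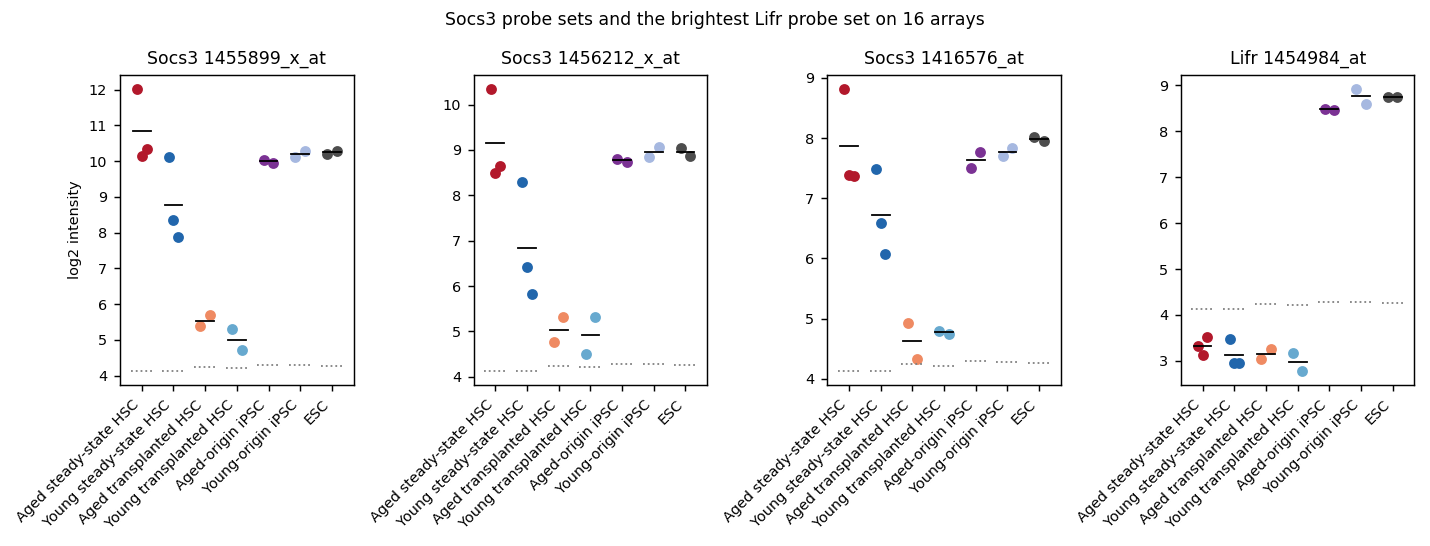
Log2 intensity (vertical axis, scaled per panel) of the 3 Socs3 probe sets and Lifr 1454984_at on each of the 16 arrays by group; points are arrays, solid lines group means and dotted lines the group's mean 25th percentile. Socs3 1455899_x_at lies between 4.71 and 5.69 in transplanted HSC and between 7.88 and 12.03 in steady-state HSC, while Lifr lies at or above 8.47 in iPSC and ESC and at or below 3.52 in HSC.

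Counts of called genes in the pathway lists stand beside 67.4% of all probe sets called in this comparison. Of all genes with 2 or more tested probe sets 6497 of 7049 were called. Of the LIF and STAT3 targets of mouse ES cells 6 were higher and 2 lower of 9 tested in iPSC, with a median of 1.53 log2 against 0.16 over all tested. These genes were listed for their part in ES cells, so the count and median cannot tell LIF signalling from cell type. LIF signalling was not tested. Klf5, a pluripotency factor gene, rose by 5.42 log2 (SE 0.17, adjusted p = 6.44e-12), Tfcp2l1, which sustains self-renewal under LIF, by 4.02 log2 (SE 0.13), and Tbx3 by 3.70 log2 (SE 0.15). Among 7 other JAK and STAT genes 1 was higher and 6 lower, with Stat5b at 4.81 in iPSC and 10.00 in steady-state HSC (1422103_a_at, -5.19 log2, SE 0.17). Another Stat5b probe set, 1422102_a_at, showed no such fall, at 5.88 to 6.33 in iPSC and 5.74 to 6.17 in steady-state HSC. Among 9 ligand and receptor genes 3 were higher and 4 lower: Lif rose by 1.57 log2 (SE 0.18, adjusted p = 3.55e-06) and Il27ra fell by 3.02 log2 (SE 0.24, adjusted p = 1.02e-07). The 18 STAT3 targets split into 8 higher, such as Timp1 (4.27 log2, SE 0.12), and 8 lower, such as Fgl2 (-4.89 log2, SE 0.12), and the negative regulators into 7 higher, 8 lower and 2 both ways of 17. Fibroblast feeder markers (11 genes) summed to 2534 to 3127 on iPSC arrays and 3494 to 3822 on ESC arrays, against 456 to 590 on steady-state HSC arrays, and their part in these differences was not tested.

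**Figure D5:**
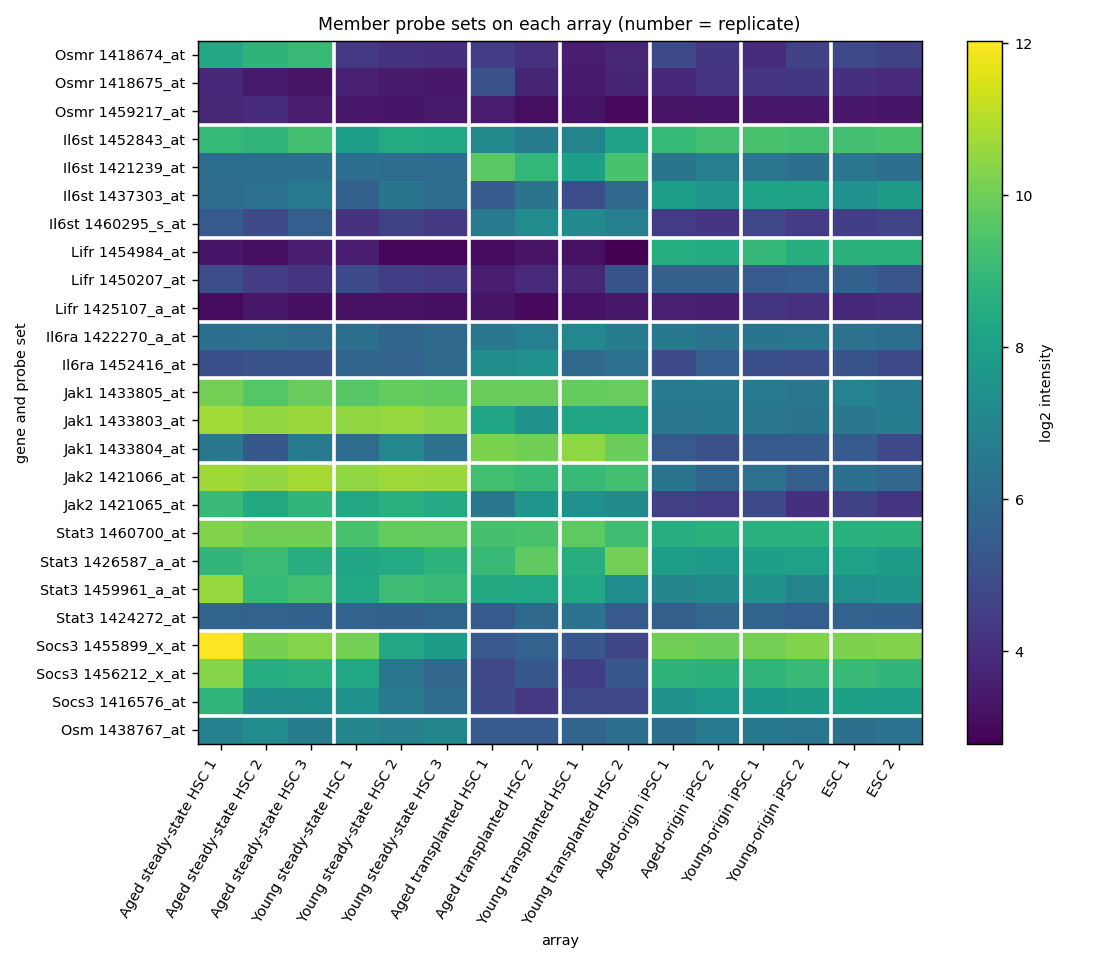
Log2 intensity (colour) of the 25 member probe sets (rows) on the 16 arrays (columns, the number being the replicate), with white lines between genes and groups. The step in Osmr 1418674_at on the 3 aged steady-state arrays, the step in Lifr 1454984_at between HSC and pluripotent arrays, the low Jak1 and Jak2 rows in pluripotent arrays and the low Socs3 rows in the 4 transplanted arrays can be seen.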

How the data were processed

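The deposited table held intensity values of 45101 probe sets on 16 arrays, linear from 4.53 to 31493 as deposited by the authors. Per the labels, RNA was extracted with a QIAGEN microRNeasy kit and labelled by the standard Affymetrix protocol; the summarisation and normalisation steps are not given in these sources. The authors' scaling was kept and log2 taken without a pseudocount. Probe sets were named by a platform table (34945 with 1 symbol), and 64 control probe sets were left out.

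Probe sets were fitted with limma 3.58.1 in R 4.3.3: the 10 HSC arrays, the 6 iPSC and ESC arrays, and all 16 (6, 3 and 9 residual degrees of freedom). Those under the 25th percentile of mean log2 were left out, leaving 33778 per fit, and Benjamini-Hochberg adjustment ran over all of them, with a call at an adjusted p under 0.05. The script was tested on simulated data. A gene counted as called if at least 1 probe set was. The naming rule took all member probe sets, up to 4 genes of each pathway list with the smallest p per comparison, called genes, and the 5 genes most like Osmr and Lifr. The members and lists were chosen with earlier results of these data known. The number of arrays limits the precision.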

Additional observations from a re-analysis of the deposited data

Results flagged for a closer look

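The age difference of Il6ra probe set 1452416_at differed between the settings by 1.99 log2 (SE 0.26, limma adjusted p = 0.0451), being 1.29 log2 in transplanted and -0.70 log2 in steady-state HSC. Both aged transplanted arrays lay above both young transplanted arrays, and all 3 aged steady-state arrays lay below all 3 young ones. The other Il6ra probe set, 1422270_a_at, gave -0.44 log2 (SE 0.30, adjusted p = 0.738) for the same difference. The call was lost without any one of the 6 steady-state arrays (adjusted p of 0.117 to 0.161) or without either aged transplanted array (0.0559 and 0.0724).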

How the results depend on the processing

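Among the called member probe sets and the described Osmr values, none changed direction under the alternatives run; differences that were not called were not followed across them. The alternatives were quantile normalisation, centring on the median, no dim filter or one at the 50th percentile, 1 probe set per gene, an intensity trend with a robust prior, log2(value + 16), the replicate number as a block, all 16 arrays or only the compared arrays in a fit, and each array left out.

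For aged minus young transplanted HSC the 1 called member gene became 0 with 1 probe set per gene, with the replicate block and with only the arrays compared, and 0 to 2 with an array left out (2 without young transplanted replicate 2). For the difference of the age differences, 1 became 0 with the 50th percentile filter, 1 probe set per gene, the trend and the block, and 0 to 1 with an array left out. The adjusted p of Il6ra 1452416_at ranged from 0.00786 to 0.993 in the first comparison and from 0.00939 to 0.383 in the second. For aged minus young steady-state HSC, 0 became 1 with the replicate block (Socs3 1456212_x_at, adjusted p = 0.0247). For transplanted minus steady-state HSC the 7 called genes were 6 to 7, for iPSC minus steady-state HSC 6 to 8, and for both other comparisons 0 throughout. The causes of these changes were not tested.

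Calls over all probe sets moved further. For aged minus young steady-state HSC 203 became 62 to 401, for transplanted HSC 263 became 0 to 2620, for their difference 18 became 0 to 1038, for transplanted minus steady-state HSC 22486 became 9534 to 26795, for iPSC minus steady-state HSC 22760 became 10429 to 25830, for iPSC minus ESC 32 became 13 to 104 and for iPSC origin 4 became 0 to 5. With log2(value + 16) the Osmr age difference of 4.56 log2 became 3.69 at steady state, 0.63 became 0.31 after transplantation, and the difference of -3.93 became -3.38.

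Deviations of same-numbered arrays correlated at -0.019, -0.332 and 0.172 in the steady-state groups, -0.129 in the transplanted ones and -0.089 in iPSC, so the numbers were not taken to pair the samples. A block with the transplanted numbers crossed, chosen after seeing the data, gave 0 member genes in both transplanted age comparisons, with 8 and 0 probe sets called in all. No paired analysis was possible for iPSC minus ESC because the ESC labels carry no number.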
